A study of Mus musculus with 6 samples.

Results

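The p53 pathway was followed as 39 genes out of the 54446 of the count table: p53 itself (Trp53), the genes that control it, and known targets of its transcription. The rule was a list of gene names, matched through the gene identifiers of the table to GENCODE M21 symbols. All 39 were found in the table. By role they fell into p53 and its feedback regulators (6 genes), arrest and growth (8), cell death (12), metabolism (7) and DNA repair (6). RNA was sequenced from TRAMP-C2, a prostate cancer line from a male C57BL/6 mouse, in 3 groups of 2 libraries. Control cells received no drug, and the other cells received oxaliplatin (Oxali) at 2 µM or cisplatin (Cispl) at 2 µM, in each case for 24 h. The medium was common to the groups and held serum, insulin and dehydroisoantrosterone, spelt here as in the labels. TRAMP-C2 is 1 line, grown from a tumor of the TRAMP mouse, whose probasin promoter drives SV40 T antigens in prostate epithelium, and large T antigen is known to bind p53. Whether these cells express T antigen is not shown here, and neither the transgene nor the sequence of p53 was analysed. The labels do not say whether libraries of a group came from separate cultures, so p values measure only the spread between these libraries, which may be technical.

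p53 is a transcription factor that is kept low in resting cells because Mdm2, a ubiquitin ligase that p53 itself switches on, marks it for degradation. DNA damage signals through the kinases ATM and ATR release p53 from Mdm2, largely by changing the protein rather than its mRNA, and p53 then binds response elements near genes that halt the cell cycle, repair DNA, adjust metabolism or cause cell death. Platinum drugs form adducts and cross-links on DNA and are a classic trigger of this response. Cisplatin carries ammine and chloride ligands on its platinum atom, whereas oxaliplatin carries a diaminocyclohexane ligand and an oxalate.

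A p53 response element is a pair of half-sites, each of 10 bases, made of purines, a core that reads CNNG with A or T between, and pyrimidines. The RefSeq promoter table (build GRCm38.p6), which reaches from 250 bases before to 50 bases after each start, held a window for 32 of the 39 members and none for Xpc, Perp, Zmat3, Rrm2b, Trp53inp1, Tnfrsf10b and Ddb2. A half-site with no mismatch lay in the windows of 11 of these 32 members (34.4%), and in 2582 of the 27025 genes with a window (9.55%). The half-site pattern is its own reverse complement, so 1 search covered both strands. A pair of half-sites, with a gap of at most 13 bases and at most 2 mismatches in all, none of them at the C or G of a core, was found for Ccng1, Rps27l, Cdkn1a and Sesn1, that is 4 of 32 members (12.5%), beside 4.71% of all genes. The palindrome TGACGTCA, bound by factors of the CREB and ATF family, lay in the windows of Ppm1d, Btg2 and Plk2 (9.38%; all genes, 2.03%). TGANTCA, bound by AP-1 factors, lay in those of Mdm4 and Fas (6.25%; all genes, 8.97%). These matches describe the letters of the windows and do not show that a factor was bound, and many known p53 elements lie farther upstream or in a first intron.

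The 250 bases before the start are printed for the members on which the results turn most. Capitals mark half-sites, gapless pairs of half-sites or, for Plk2, TGACGTCA. The Cdkn1a stretch is chr17:29090729-29090978 on the + strand, with half-sites that begin at -73 and -51 from the start. The Mdm2 stretch is chr10:117710759-117711008 on the - strand, with a half-site at -186. For Ccng1 the stretch is chr11:40755287-40755536 on the - strand, with a half-site at -185, and for Trp53 it is chr11:69580109-69580358 on the + strand, with a half-site at -75. The Plk2 stretch, chr13:110394794-110395043 on the + strand, held no half-site.
Cdkn1a: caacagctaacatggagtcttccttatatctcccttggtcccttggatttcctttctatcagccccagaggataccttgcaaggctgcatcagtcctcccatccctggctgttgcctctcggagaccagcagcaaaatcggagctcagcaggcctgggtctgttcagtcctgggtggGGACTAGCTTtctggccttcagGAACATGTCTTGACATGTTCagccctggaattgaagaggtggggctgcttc
Mdm2: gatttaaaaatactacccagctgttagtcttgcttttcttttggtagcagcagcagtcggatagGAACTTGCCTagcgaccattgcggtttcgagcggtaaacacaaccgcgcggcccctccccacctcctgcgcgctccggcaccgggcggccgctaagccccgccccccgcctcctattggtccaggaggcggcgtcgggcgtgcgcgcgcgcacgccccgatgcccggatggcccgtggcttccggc
Ccng1: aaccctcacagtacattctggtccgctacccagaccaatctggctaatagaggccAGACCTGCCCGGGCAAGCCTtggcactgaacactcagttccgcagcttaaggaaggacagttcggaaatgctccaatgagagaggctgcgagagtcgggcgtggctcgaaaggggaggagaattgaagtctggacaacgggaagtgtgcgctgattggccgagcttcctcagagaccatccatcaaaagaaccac
Trp53: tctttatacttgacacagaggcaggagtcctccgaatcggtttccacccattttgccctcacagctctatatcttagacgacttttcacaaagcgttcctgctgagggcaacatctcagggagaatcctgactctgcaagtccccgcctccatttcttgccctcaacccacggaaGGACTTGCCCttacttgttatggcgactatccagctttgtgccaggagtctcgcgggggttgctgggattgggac
Plk2: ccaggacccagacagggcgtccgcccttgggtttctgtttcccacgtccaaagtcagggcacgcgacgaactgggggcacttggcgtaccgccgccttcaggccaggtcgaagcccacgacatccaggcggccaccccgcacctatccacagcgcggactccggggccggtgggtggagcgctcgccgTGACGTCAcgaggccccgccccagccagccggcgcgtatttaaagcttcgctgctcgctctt

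Shorter stretches, with 10 bases on each side of a half-site in capitals, are shown for the other members with a half-site that passed a test below. These are Aen (chr7:78895927-78895956, + strand), Ei24 (chr9:36797325-36797354, - strand), Sesn1 (chr10:41887256-41887285, + strand), Abhd4 (chr14:54259274-54259303, + strand) and Polk (chr13:96519399-96519428, - strand).
Aen: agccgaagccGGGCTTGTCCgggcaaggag
Ei24: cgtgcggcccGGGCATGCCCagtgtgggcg
Sesn1: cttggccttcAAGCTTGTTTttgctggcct
Abhd4: cgacccggcaGGGCTTGTTTactatggctg
Polk: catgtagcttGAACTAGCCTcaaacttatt

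Total counts were 21345312 to 24041767 per library, at which 3 counts, the limit that a count of 0 allows, equal 0.125 to 0.141 CPM (a count relative to its library's total). That limit covers counting error only. Replicate libraries had correlations of log2 counts across genes of 0.986 to 0.988, and genes are not independent replicates. The label of an epithelial prostate line was only partly met. Of 10 prostate epithelium markers 5 passed the filter, among them Cdh1, Krt8, Krt18 and Krt14, while Krt5 and Pbsn were at 0 in every library and Epcam stayed at or below 1.97 normalised counts. All 6 fibroblast and smooth muscle markers were abundant, and their summed normalised counts were 291283 to 312463 in control, 260773 to 261522 in oxaliplatin and 248986 to 254987 in cisplatin libraries. Within that list Col1a1 and Col1a2, the chains of type I collagen that make up most of the sum, fell after both drugs by the DESeq2 test defined below, whereas Vim rose after both, and Pdgfra and Acta2 rose after oxaliplatin. Epithelium markers summed to 2138 to 2279 normalised counts in control, 1910 to 2014 in oxaliplatin and 1958 to 1985 in cisplatin libraries. The sum was thus lower after both drugs, although within the list Krt14 rose by 60.4% after oxaliplatin and Cdh1 rose by 44.2% after cisplatin. Of 5 leukocyte markers 1 passed the filter, and their sums were 32.5 to 43.6, 31.7 to 32.5 and 50.1 to 52.0. Of 3 endothelium markers 1 passed, with sums of 22.7 to 26.98, 51.2 to 61.3 and 53.2 to 71.6. The part of these markers in the results below was not tested. In bulk RNA fewer cells of a type and less RNA per cell cannot be told apart.

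Of the 39 members 38 passed the filter on low counts and were tested with all other genes, 14956 in all. The exception was Cyfip2, a gene of the cytoskeleton and a p53 target, with 3.11 and 1.97 normalised counts in the control libraries and 0 counts in the 4 drug libraries, which allows up to 0.125 to 0.137 CPM. Gdf15 and Perp passed the filter but received no adjusted p, because their means were low. After oxaliplatin DESeq2 called 15 members, 39.5% of the 38 (adjusted p under 0.05 by Benjamini-Hochberg over all genes), where 20.2% of all genes were called. The 7 higher members were Trp53, Btg1, Plk2, Aen, Phlda3, Tigar and Polk (10.7% of all genes), and the 8 lower were Ccng1, Btg2, Trp53inp1, Apaf1, Sesn1, Sesn2, Fdxr and Abhd4 (9.50% of all genes). The median log2 fold change of the 38 members was -0.06, beside -0.0029 for all genes. After cisplatin 13 members, 34.2% of the 38, were called, where 28.1% of all genes were called. Trp53, Mdm2, Cdkn1a, Btg1, Plk2, Aen, Phlda3 and Tigar were the 8 higher members (15.7% of all genes), and Btg2, Psrc1, Ei24, Sesn1 and Fdxr were the 5 lower (12.4% of all genes). Here the median was 0.12, beside -0.00083 for all genes. Both comparisons used the same control libraries.

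Between the drugs, given at the same dose and for the same time, 13 members passed, where 19.9% of all genes did. A set of 12 was lower after oxaliplatin (11.3% of all genes), namely Trp53, Mdm2, Ccng1, Cdkn1a, Btg1, Btg2, Plk2, Trp53inp1, Apaf1, Sesn2, Ephx1 and Abhd4. Only Psrc1 was higher after oxaliplatin in this fit (8.62% of all genes). The median log2 difference over the 38 members, oxaliplatin minus cisplatin, was -0.15, beside -0.0033 for all genes. At an unadjusted p under 0.05 there were 18 members after oxaliplatin (all genes, 28.2%), 18 after cisplatin (35.7%) and 16 between the drugs (28.5%). edgeR's quasi-likelihood test called 18 after oxaliplatin (7 higher and 11 lower; 30.9% of all genes), 24 after cisplatin (17 up and 7 down; 40.9%) and 17 between the drugs (15 lower and 2 higher; 31.9%). The 2 libraries of a group lay wholly apart from those of the other group for 27 members after oxaliplatin, 31 after cisplatin and 27 between the drugs, and among all genes that was so for 64.8%, 69.4% and 68.0%. For the other fits in this paragraph the share of all genes called was not counted. Scaling by total counts left 8 calls between the drugs, 1 higher and 7 lower. Counts fell where 1 library was left out: the 15 calls after oxaliplatin became 8 without control replicate 1, 9 without control replicate 2, 6 without oxaliplatin replicate 1 and 8 without oxaliplatin replicate 2. The 13 calls after cisplatin became 8 without cisplatin replicate 1 and 8 without cisplatin replicate 2. The 13 calls between the drugs became 7 without control replicate 1, 7 without control replicate 2, 3 without oxaliplatin replicate 1, 4 without oxaliplatin replicate 2, 3 without cisplatin replicate 1 and 1 without cisplatin replicate 2.

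**Figure D1:**
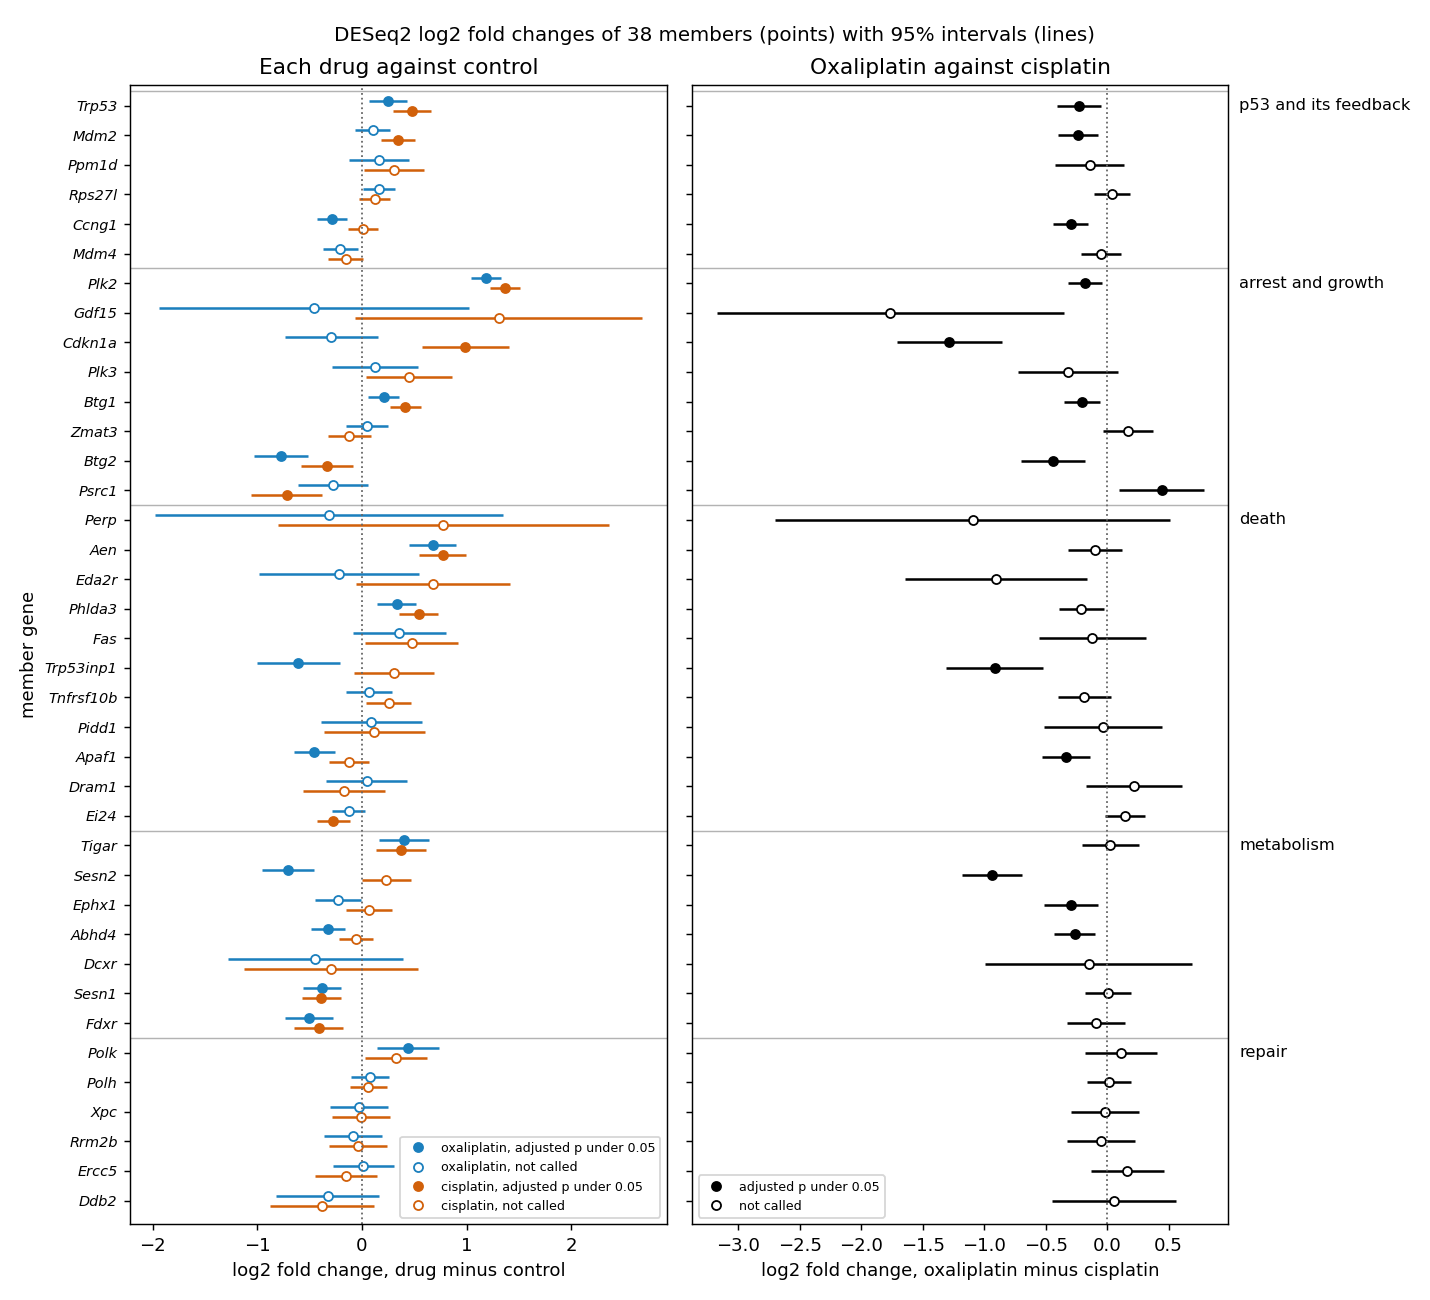
Points are DESeq2 log2 fold changes of the 38 tested members with 95% intervals as lines, for each drug against control on the left and oxaliplatin against cisplatin on the right, grouped by role, with filled points for adjusted p under 0.05. Plk2 lies farthest to the right among called members after both drugs (1.19 and 1.37), and on the right-hand side 12 of the 13 filled points lie below 0.

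In untreated cells the members spanned a wide range of levels, read as mean normalised counts per kb of exon. Rps27l, a ribosomal protein paralog and p53 target, stood highest at 2769 per kb, and its counts are uncertain where reads could also match its paralog Rps27. Ccng1 (481 per kb), Phlda3 (453), Abhd4 (402) and Ephx1 (382) followed, and then Plk2 (321). Trp53 itself stood 12th with 209 per kb, next to its regulator Mdm2 with 197 per kb. Cdkn1a, the target most often used as a readout of p53, stood 33rd with 36.6 per kb. The lowest were Eda2r (8.23 per kb), Gdf15 (6.60), Perp (4.65) and Cyfip2 (0.358). Neighbours in this order overlapped between their libraries in 19 of 38 cases, among them Mdm2 and Polh, and Cdkn1a and Dcxr. As many as 19 members lay above the median level of all tested genes.

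**Figure D2:**
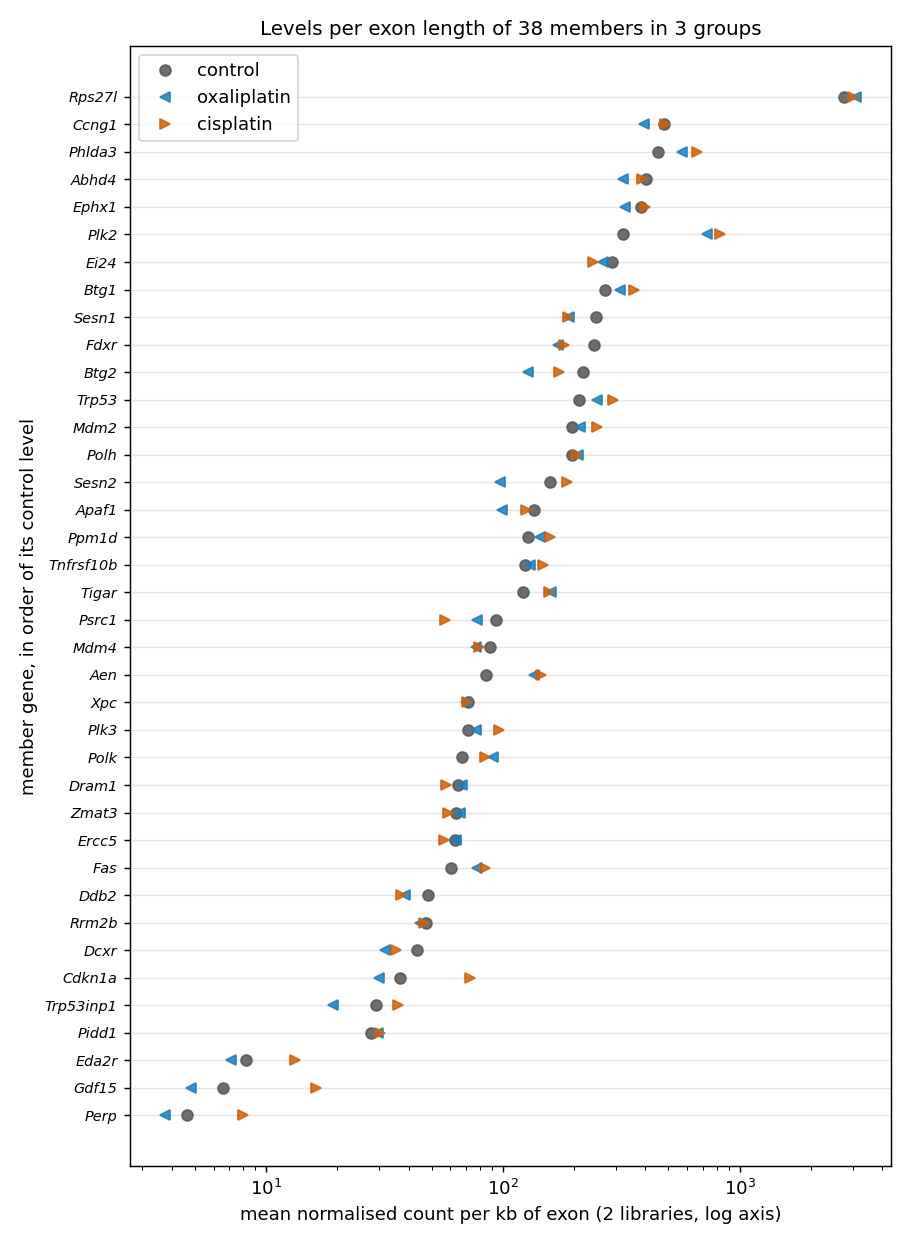
Mean normalised counts per kb of exon (log axis, 2 libraries a group) for the 38 tested members in order of their control level, with circles for control, left-pointing triangles for oxaliplatin and right-pointing triangles for cisplatin. Levels run from 2769 per kb for Rps27l to 4.65 per kb for Perp in control cells, and the groups stand well apart for Plk2 (321, 729 and 826 per kb) but not for Polh (196, 207 and 205 per kb).

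p53 and its feedback regulators moved in part. Trp53 mRNA rose by 19.0% after oxaliplatin and by 39.3% after cisplatin, and it was lower after oxaliplatin than after cisplatin. Trp53 (ENSMUSG00000059552, chr11:69580359-69591873, + strand) had normalised counts of 819 and 872 in control, 1005 and 1007 in oxaliplatin, and 1213 and 1143 in cisplatin libraries. The 3 groups did not overlap, with control lowest and cisplatin highest. For Trp53 the log2 fold change was 0.25 ± 0.09 (SE; DESeq2 adjusted p = 0.0291) after oxaliplatin and 0.48 ± 0.09 (SE; DESeq2 adjusted p = 2.16e-06) after cisplatin. The difference, oxaliplatin minus cisplatin, was -0.23 ± 0.09 (SE; DESeq2 adjusted p = 0.0476). Trp53 passed after oxaliplatin in 6 of 14 alternatives (DESeq2 or edgeR adjusted p from 0.0101 to 0.285), and in no fit that left out any 1 of the 6 libraries (0.0945 to 0.285). Between the drugs Trp53 passed in 2 of 14 alternatives (DESeq2 or edgeR adjusted p from 0.0163 to 0.452), and in no fit that left out any 1 of the 6 libraries (0.103 to 0.452). The cisplatin call held in all 14 alternatives with an adjusted p (DESeq2 or edgeR, 1.25e-06 to 0.0121).

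Mdm2, the ubiquitin ligase that p53 induces and that degrades it, rose by 26.6% after cisplatin. Mdm2 (ENSMUSG00000020184, chr10:117688875-117710758, - strand) had normalised counts of 988 and 1011 in control, 1079.7 and 1065 in oxaliplatin, and 1272 and 1258 in cisplatin libraries. Both cisplatin libraries lay above all others, and the oxaliplatin libraries lay just above control without passing the test. For Mdm2 the log2 fold change was 0.34 ± 0.08 (SE; DESeq2 adjusted p = 0.000309) after cisplatin and 0.10 (DESeq2 adjusted p = 0.422) after oxaliplatin. Oxaliplatin minus cisplatin was -0.24 ± 0.08 (SE; DESeq2 adjusted p = 0.0195). Mdm2 passed after cisplatin in 13 of 14 alternatives (DESeq2 or edgeR adjusted p from 0.000318 to 0.0512), with the call lost without cisplatin replicate 1 (0.0512). The drug difference of Mdm2 passed in 6 of 14 alternatives (DESeq2 or edgeR adjusted p from 0.00653 to 0.273), and in no fit that left out any 1 of the 6 libraries (0.0626 to 0.273). Mdm4, which holds p53 inactive without degrading it, had log2 fold changes of -0.21 (DESeq2 adjusted p = 0.0552) and -0.16 (DESeq2 adjusted p = 0.150) after oxaliplatin and cisplatin, and edgeR called it lower after both (edgeR adjusted p = 0.0172 and 0.0375). As a description, the ratio of Mdm2 to Mdm4 counts within a library was 0.787 and 0.742 in control, 0.952 and 0.939 in oxaliplatin, and 1.09 and 1.06 in cisplatin cells. The ratio did not overlap between groups.

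Ccng1, cyclin G1, a p53 target that helps Mdm2 act on p53, fell by 18.0% after oxaliplatin. Ccng1 (ENSMUSG00000020326, chr11:40748552-40755311, - strand) had normalised counts of 1673 and 1708 in control, 1373 and 1399 in oxaliplatin, and 1673 and 1730.3 in cisplatin libraries. The oxaliplatin libraries lay below all others, whereas control and cisplatin overlapped. For Ccng1 the log2 fold change was -0.29 ± 0.07 (SE; DESeq2 adjusted p = 0.000597) after oxaliplatin, 0.0094 (DESeq2 adjusted p = 0.944) after cisplatin and -0.30 ± 0.07 (SE; DESeq2 adjusted p = 0.000378) for oxaliplatin minus cisplatin. Scaling by total counts turned the small cisplatin value to -0.0387. Ccng1 passed after oxaliplatin in 12 of 14 alternatives (DESeq2 or edgeR adjusted p from 0.000278 to 0.0856), with the call lost without control replicate 2 (0.0542) or oxaliplatin replicate 1 (0.0856). Against cisplatin Ccng1 passed in 12 of 14 alternatives (DESeq2 or edgeR adjusted p from 0.000466 to 0.0784), with the call lost without oxaliplatin replicate 1 (0.0784) or cisplatin replicate 2 (0.0779). Ppm1d, the Wip1 phosphatase that ends the response, and Rps27l passed in none of the comparisons by DESeq2, while edgeR called Ppm1d higher after cisplatin (edgeR adjusted p = 0.0261). Ppm1d had log2 fold changes of 0.16 (DESeq2 adjusted p = 0.472) and 0.31 (DESeq2 adjusted p = 0.0967) after oxaliplatin and cisplatin, and Rps27l of 0.16 (DESeq2 adjusted p = 0.105) and 0.12 (DESeq2 adjusted p = 0.233). In this group of 6, DESeq2 called 1 gene up and 1 down after oxaliplatin (33.3%; all genes, 20.2%). After cisplatin 2 were called up (33.3%; all genes, 28.1%). After oxaliplatin 3 stood below their cisplatin level (50%; all genes, 19.9%). Medians of the 3 comparisons were 0.13, 0.21 and -0.19.

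**Figure D3:**
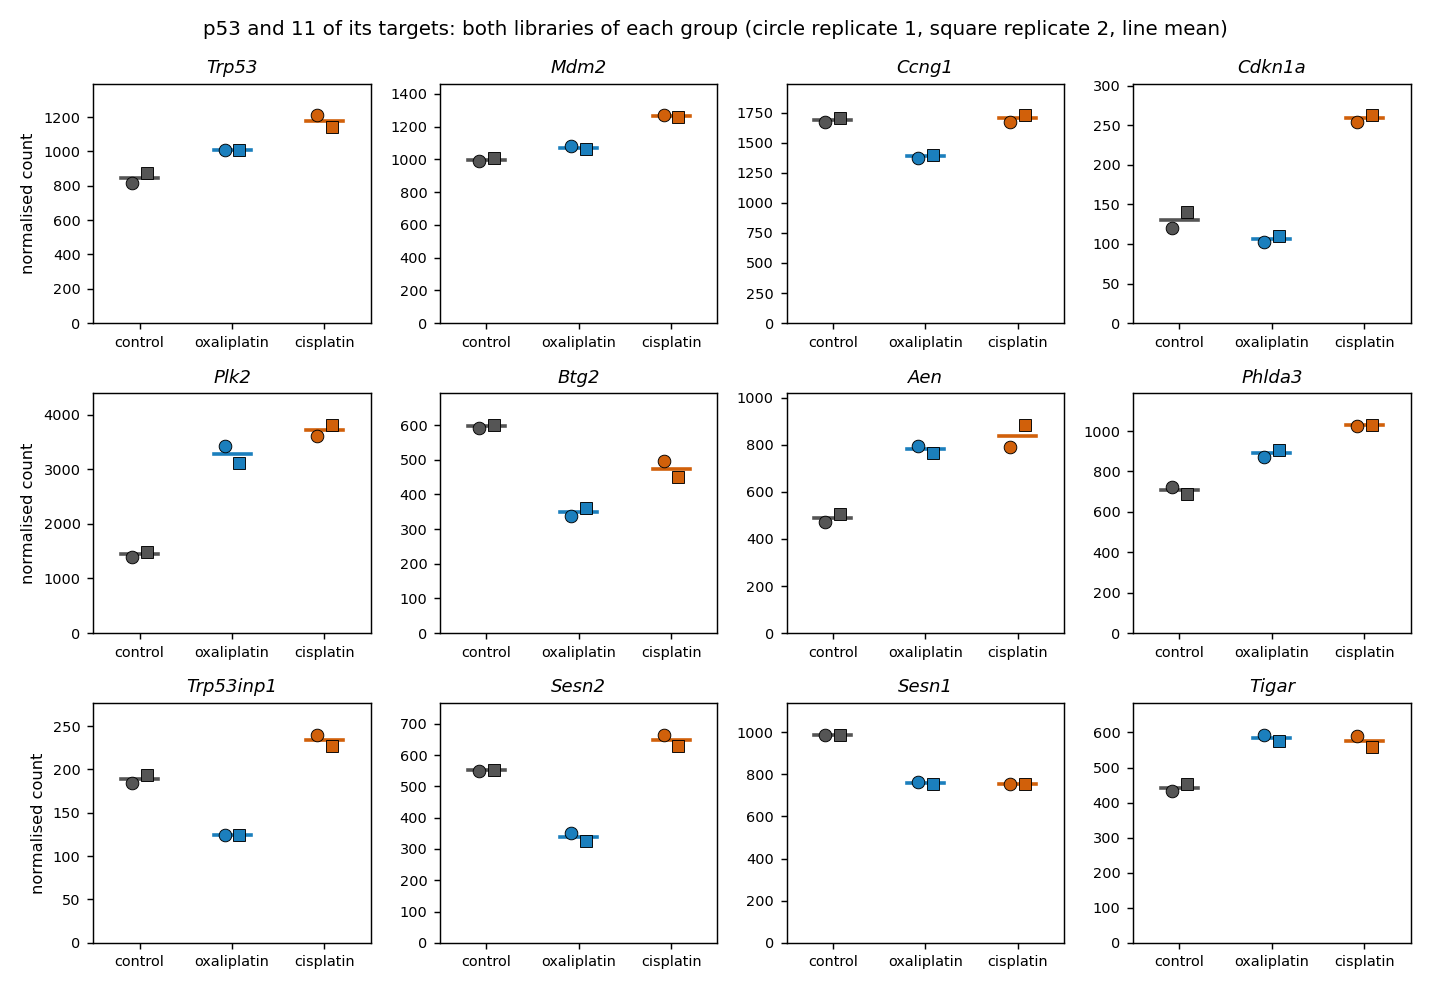
Normalised counts of Trp53 and 11 of its targets, with a circle for replicate 1, a square for replicate 2 and a line for the mean of each group, on axes that start at 0. Cdkn1a and Sesn2 show cisplatin libraries above and oxaliplatin libraries below control, Plk2 and Aen rise after both drugs, and Sesn1 falls after both to nearly the same counts (763 and 753 against 753 and 754).

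Among the arrest and growth genes Plk2 rose most, and Cdkn1a had the largest called difference between the drugs. Cdkn1a, p21, the inhibitor of cyclin-dependent kinases that carries much of the p53 arrest, rose by 98.4% after cisplatin and did not pass the test after oxaliplatin. Cdkn1a (ENSMUSG00000023067, chr17:29090976-29100727, + strand) had normalised counts of 120.4 and 139.9 in control, 102 and 111 in oxaliplatin, and 254 and 263 in cisplatin libraries. Both cisplatin libraries lay above every other library, and both oxaliplatin libraries lay below the control libraries. For Cdkn1a the log2 fold change was 0.99 ± 0.21 (SE; DESeq2 adjusted p = 3.44e-05) after cisplatin and -0.29 ± 0.23 (SE; DESeq2 adjusted p = 0.384) after oxaliplatin, which did not pass. Oxaliplatin minus cisplatin was -1.28 ± 0.22 (SE; DESeq2 adjusted p = 8.63e-08). The cisplatin call of Cdkn1a held in all 14 alternatives with an adjusted p (DESeq2 or edgeR, 1.39e-05 to 0.0299). Its drug difference held in all 12 alternatives with an adjusted p (DESeq2 or edgeR, 2.29e-08 to 0.00287). Its promoter stretch is printed above.

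Plk2, a polo-like kinase that responds to stress, was 2.27-fold higher after oxaliplatin and 2.58-fold higher after cisplatin. Plk2 (ENSMUSG00000021701, chr13:110395046-110400844, + strand) had normalised counts of 1395 and 1486 in control, 3431 and 3120.3 in oxaliplatin, and 3607 and 3816 in cisplatin libraries. All 4 drug libraries lay far above control, and the cisplatin libraries lay above the oxaliplatin libraries. For Plk2 the log2 fold change was 1.19 ± 0.07 (SE; DESeq2 adjusted p = 2.81e-56) after oxaliplatin and 1.37 ± 0.07 (SE; DESeq2 adjusted p = 1.01e-75) after cisplatin. Of all 14956 genes, 169 rose by more than Plk2 after oxaliplatin and 184 after cisplatin, and genes that fell were not counted. These calls held in all 14 alternatives with an adjusted p (DESeq2 or edgeR, 3.18e-62 to 4.80e-06) for oxaliplatin and in all 14 alternatives with an adjusted p (DESeq2 or edgeR, 5.77e-84 to 8.24e-07) for cisplatin. The drugs differed by -0.18 ± 0.07 (SE; DESeq2 adjusted p = 0.0423). That difference passed in 4 of 14 alternatives (DESeq2 or edgeR adjusted p from 0.0269 to 0.506), and in no fit that left out any 1 of the 6 libraries (0.0580 to 0.506). Its relative Plk3 had log2 fold changes of 0.12 (DESeq2 adjusted p = 0.742) and 0.45 (DESeq2 adjusted p = 0.0907) after oxaliplatin and cisplatin, and edgeR called it higher after cisplatin (edgeR adjusted p = 0.0213).

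The antiproliferative pair Btg1 and Btg2 moved in opposite directions. Btg1 (ENSMUSG00000036478, chr10:96617006-96622809, + strand) had normalised counts of 1461 and 1378 in control, 1603 and 1680.4 in oxaliplatin, and 1924 and 1857 in cisplatin libraries. The 3 groups did not overlap, in the order control, oxaliplatin and cisplatin. For Btg1 the log2 fold change was 0.21 ± 0.08 (SE; DESeq2 adjusted p = 0.0249) after oxaliplatin, 0.41 ± 0.07 (SE; DESeq2 adjusted p = 4.71e-07) after cisplatin and -0.20 ± 0.07 (SE; DESeq2 adjusted p = 0.0271) between the drugs. Btg1 passed after oxaliplatin in 6 of 14 alternatives (DESeq2 or edgeR adjusted p from 0.00950 to 0.368), and in no fit that left out any 1 of the 6 libraries (0.0674 to 0.368). Its drug difference passed in 6 of 14 alternatives (DESeq2 or edgeR adjusted p from 0.0114 to 0.385), and in no fit that left out any 1 of the 6 libraries (0.0619 to 0.385), whereas the cisplatin call held in all 14 alternatives with an adjusted p (DESeq2 or edgeR, 3.12e-07 to 0.00503).

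Btg2, a p53 target that restrains cell cycle entry, fell by 41.4% after oxaliplatin and fell by 20.6% after cisplatin. Btg2 (ENSMUSG00000020423, chr1:134075170-134079120, - strand) had normalised counts of 593 and 601 in control, 339 and 361 in oxaliplatin, and 497 and 450.2 in cisplatin libraries. Oxaliplatin libraries were lowest, cisplatin libraries lay between, and no groups overlapped. For Btg2 the log2 fold change was -0.77 ± 0.13 (SE; DESeq2 adjusted p = 8.44e-08) after oxaliplatin, -0.33 ± 0.13 (SE; DESeq2 adjusted p = 0.0323) after cisplatin and -0.44 ± 0.13 (SE; DESeq2 adjusted p = 0.00609) between the drugs. The oxaliplatin call of Btg2 held in all 14 alternatives with an adjusted p (DESeq2 or edgeR, 2.83e-08 to 0.00299). After cisplatin Btg2 passed in 6 of 14 alternatives (DESeq2 or edgeR adjusted p from 0.00336 to 0.376), and in no fit that left out any 1 of the 6 libraries (0.1003 to 0.376). Between the drugs Btg2 passed in 9 of 14 alternatives (DESeq2 or edgeR adjusted p from 0.00187 to 0.250), with the losses including those without oxaliplatin replicate 1 (0.210), oxaliplatin replicate 2 (0.0832), cisplatin replicate 1 (0.250) and cisplatin replicate 2 (0.0588).

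Psrc1, a microtubule-associated protein of the mitotic spindle whose gene p53 regulates, fell by 39.3% after cisplatin. Psrc1 (ENSMUSG00000068744, chr3:108383839-108388231, + strand) had normalised counts of 303 and 328 in control, 267 and 254 in oxaliplatin, and 201 and 182 in cisplatin libraries. The groups did not overlap, and cisplatin was lowest. For Psrc1 the log2 fold change was -0.72 ± 0.17 (SE; DESeq2 adjusted p = 0.000277) after cisplatin, -0.28 (DESeq2 adjusted p = 0.253) after oxaliplatin and 0.44 ± 0.18 (SE; DESeq2 adjusted p = 0.0478) for oxaliplatin minus cisplatin. edgeR called Psrc1 lower after oxaliplatin as well (edgeR adjusted p = 0.0369). Psrc1 passed after cisplatin in 13 of 14 alternatives (DESeq2 or edgeR adjusted p from 9.78e-05 to 0.0581), with the call lost without cisplatin replicate 2 (0.0581). Between the drugs Psrc1 passed in 4 of 14 alternatives (DESeq2 or edgeR adjusted p from 0.00519 to 0.392), and in no fit that left out any 1 of the 6 libraries (0.114 to 0.392). Gdf15, a secreted stress cytokine, had only 5.57 to 33.8 normalised counts in any library, and its log2 fold changes of -0.46 ± 0.75 and 1.304 ± 0.70 (SE) after oxaliplatin and cisplatin had no adjusted p from DESeq2. edgeR called Gdf15 higher after cisplatin (edgeR adjusted p = 0.0406). Oxaliplatin minus cisplatin was -1.76 for Gdf15, larger in size than for any other member, again with no adjusted p from DESeq2 and with an edgeR adjusted p of 0.0171. Zmat3, an RNA-binding protein, had log2 fold changes of 0.05 (DESeq2 adjusted p = 0.810) and -0.12 (DESeq2 adjusted p = 0.412), and edgeR called its drug difference of 0.17 (edgeR adjusted p = 0.0453). Over the 8 genes of this group, 2 were called up and 1 down after oxaliplatin (37.5%; all genes, 20.2%). After cisplatin 3 were called up and 2 down (62.5%; all genes, 28.1%). After oxaliplatin 1 stood above and 4 below their cisplatin level (62.5%; all genes, 19.9%). Medians of the 3 comparisons were -0.11, 0.43 and -0.26.

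**Figure D4:**
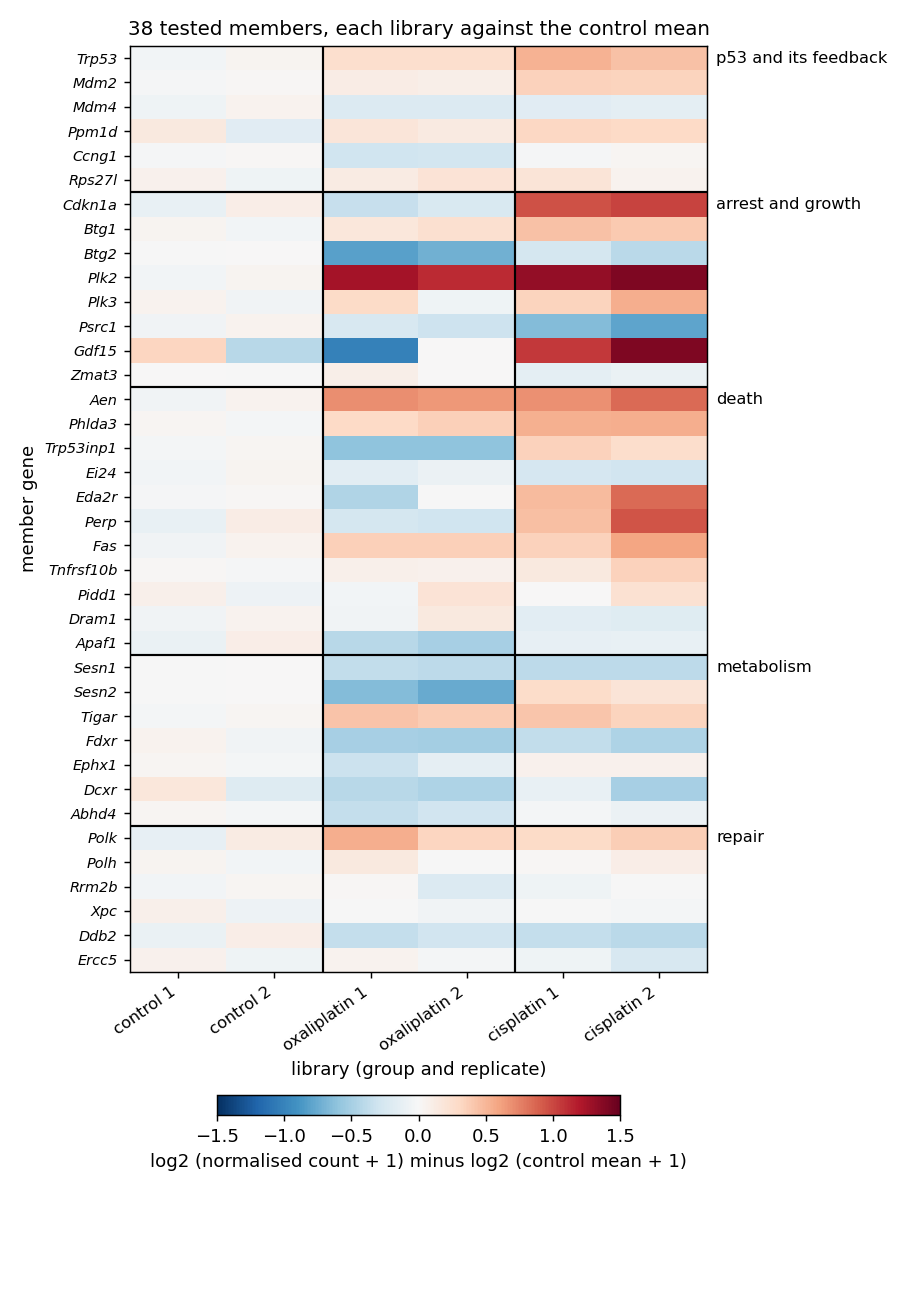
Colors give log2 (normalised count + 1) of each library minus the log2 of the control mean + 1 for the 38 tested members, in rows grouped by role, with red for higher and blue for lower. The rows of Plk2 and Aen are red in all 4 drug libraries, those of Sesn1 and Fdxr are blue in all 4, and those of Cdkn1a, Trp53inp1 and Sesn2 are blue after oxaliplatin and red after cisplatin.

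Of the 12 cell death genes 11 were tested. DESeq2 called 2 up and 2 down after oxaliplatin (36.4%; all genes, 20.2%) and 2 up and 1 down after cisplatin (27.3%; all genes, 28.1%). After oxaliplatin 2 stood below their cisplatin level (18.2%; all genes, 19.9%). Medians of the 3 comparisons were 0.05, 0.31 and -0.19. Aen, a nuclease that degrades DNA in dying cells, rose by 59.6% after oxaliplatin and by 71.0% after cisplatin. Aen (ENSMUSG00000030609, chr7:78895854-78911209, + strand) had normalised counts of 473 and 507 in control, 797 and 768 in oxaliplatin, and 791 and 886 in cisplatin libraries. Every drug library lay above control, and the libraries of both drugs overlapped. For Aen the log2 fold change was 0.67 ± 0.11 (SE; DESeq2 adjusted p = 9.68e-08) and 0.77 ± 0.11 (SE; DESeq2 adjusted p = 3.79e-10), which held in all 14 alternatives with an adjusted p (DESeq2 or edgeR, 2.02e-08 to 0.00246) for oxaliplatin and in all 14 alternatives with an adjusted p (DESeq2 or edgeR, 4.26e-11 to 0.000519) for cisplatin. A difference between the drugs was not detected, at -0.10 (DESeq2 adjusted p = 0.575) with a 95% interval of -0.32 to 0.12.

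Phlda3, which blocks AKT at the membrane and so favors cell death, rose by 25.9% after oxaliplatin and by 45.7% after cisplatin. Phlda3 (ENSMUSG00000041801, chr1:135766119-135769136, + strand) had normalised counts of 722 and 691 in control, 873 and 907 in oxaliplatin, and 1026 and 1031 in cisplatin libraries. The groups did not overlap and followed the order control, oxaliplatin and cisplatin. For Phlda3 the log2 fold change was 0.33 ± 0.10 (SE; DESeq2 adjusted p = 0.00340) after oxaliplatin and 0.54 ± 0.09 (SE; DESeq2 adjusted p = 1.73e-07) after cisplatin. Between the drugs it was -0.21 (DESeq2 adjusted p = 0.0827), with a 95% interval of -0.39 to -0.03 that is not adjusted for the number of genes, and edgeR called it (edgeR adjusted p = 0.0193). Phlda3 passed after oxaliplatin in 11 of 14 alternatives (DESeq2 or edgeR adjusted p from 0.00187 to 0.178), with the call lost without control replicate 2 (0.112), oxaliplatin replicate 1 (0.0880) or oxaliplatin replicate 2 (0.178). Its cisplatin call held in all 14 alternatives with an adjusted p (DESeq2 or edgeR, 1.22e-07 to 0.00283).

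Trp53inp1, a stress protein that p53 induces and that promotes cell death and autophagy, fell by 34.3% after oxaliplatin. Trp53inp1 (ENSMUSG00000028211, chr4:11156431-11174379, + strand) had normalised counts of 185 and 193 in control, 124 and 124 in oxaliplatin, and 240.2 and 227 in cisplatin libraries. Oxaliplatin libraries lay below and cisplatin libraries above control. For Trp53inp1 the log2 fold change was -0.61 ± 0.20 (SE; DESeq2 adjusted p = 0.0156) after oxaliplatin and 0.31 (DESeq2 adjusted p = 0.239) after cisplatin, while oxaliplatin minus cisplatin was -0.91 ± 0.20 (SE; DESeq2 adjusted p = 7.55e-05). edgeR called Trp53inp1 higher after cisplatin (edgeR adjusted p = 0.0275). Trp53inp1 passed after oxaliplatin in 6 of 14 alternatives (DESeq2 or edgeR adjusted p from 0.00167 to 0.210), and in no fit that left out any 1 of the 6 libraries (0.0880 to 0.210). The drug difference held in all 13 alternatives with an adjusted p (DESeq2 or edgeR, 4.65e-05 to 0.0443).

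Apaf1, the scaffold of the apoptosome that activates caspase-9, fell by 27.0% after oxaliplatin. Apaf1 (ENSMUSG00000019979, chr10:90989311-91082770, - strand) had normalised counts of 1139 and 1305 in control, 917 and 868 in oxaliplatin, and 1122 and 1129 in cisplatin libraries. Both oxaliplatin libraries lay below all others, and the cisplatin libraries lay just below control. For Apaf1 the log2 fold change was -0.45 ± 0.10 (SE; DESeq2 adjusted p = 4.87e-05) after oxaliplatin, -0.12 (DESeq2 adjusted p = 0.382) after cisplatin and -0.33 ± 0.10 (SE; DESeq2 adjusted p = 0.00476) between the drugs. The oxaliplatin call of Apaf1 held in all 14 alternatives with an adjusted p (DESeq2 or edgeR, 1.44e-05 to 0.0364). Between the drugs Apaf1 passed in 10 of 14 alternatives (DESeq2 or edgeR adjusted p from 0.00256 to 0.156), with the call lost without oxaliplatin replicate 1 (0.0594), oxaliplatin replicate 2 (0.156), cisplatin replicate 1 (0.103) or cisplatin replicate 2 (0.105).

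Ei24, a p53-induced protein of the endoplasmic reticulum, fell by 17.2% after cisplatin. Ei24 (ENSMUSG00000062762, chr9:36779159-36797393, - strand) had normalised counts of 1376 and 1449 in control, 1261 and 1328 in oxaliplatin, and 1184 and 1154 in cisplatin libraries, with the cisplatin libraries lowest and no overlap between groups. For Ei24 the log2 fold change was -0.27 ± 0.08 (SE; DESeq2 adjusted p = 0.00423) after cisplatin and -0.13 (DESeq2 adjusted p = 0.275) after oxaliplatin. Ei24 passed after cisplatin in 11 of 14 alternatives (DESeq2 or edgeR adjusted p from 0.000634 to 0.141), with the call lost without control replicate 2 (0.141), cisplatin replicate 1 (0.0801) or cisplatin replicate 2 (0.136). Death receptors and other members of the group passed in none of the 3 comparisons by DESeq2. Fas, the receptor of Fas ligand, had log2 fold changes of 0.36 (DESeq2 adjusted p = 0.270) and 0.48 (DESeq2 adjusted p = 0.0945). For Tnfrsf10b, the mouse TRAIL receptor, they were 0.07 (DESeq2 adjusted p = 0.730) and 0.25 (DESeq2 adjusted p = 0.0664), and for Eda2r, a receptor of ectodysplasin, -0.22 (DESeq2 adjusted p = 0.752) and 0.68 (DESeq2 adjusted p = 0.162). edgeR called Fas, Tnfrsf10b and Eda2r higher after cisplatin, with edgeR adjusted p of 0.0124, 0.0190 and 0.0373. It also called Eda2r between the drugs, at -0.90 (edgeR adjusted p = 0.0148). Pidd1, the core of the PIDDosome, and Dram1, a lysosomal protein, had log2 fold changes between -0.17 and 0.12 in both drug comparisons. Perp, a membrane protein of desmosomes, had only 7.16 to 18.4 normalised counts in any library.

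Of the 7 metabolic genes 1 was called higher and 4 lower after oxaliplatin (all genes, 10.7% and 9.50%), with a median log2 fold change of -0.38. After cisplatin 1 was called up and 2 down (all genes, 15.7% and 12.4%; median -0.06), and 3 stood below their cisplatin level after oxaliplatin (all genes, 11.3%; median -0.15). The sestrins, which restrain mTORC1 and support antioxidant defense, split. Sesn2 fell by 38.6% after oxaliplatin, and Sesn1 fell by 23.1% after oxaliplatin and fell by 23.6% after cisplatin. Sesn2 (ENSMUSG00000028893, chr4:132492032-132510501, - strand) had normalised counts of 549 and 554 in control, 350.0 and 326 in oxaliplatin, and 666 and 630.3 in cisplatin libraries. Oxaliplatin libraries lay below and cisplatin libraries above control, without overlap. For Sesn2 the log2 fold change was -0.70 ± 0.13 (SE; DESeq2 adjusted p = 4.38e-07) after oxaliplatin and 0.23 (DESeq2 adjusted p = 0.130) after cisplatin, and oxaliplatin minus cisplatin was -0.94 ± 0.12 (SE; DESeq2 adjusted p = 3.09e-12), the smallest adjusted p of the members between the drugs. edgeR called Sesn2 higher after cisplatin (edgeR adjusted p = 0.0146). For Sesn2 both calls held, the first in all 14 alternatives with an adjusted p (DESeq2 or edgeR, 2.26e-07 to 0.00543) and the second in all 14 alternatives with an adjusted p (DESeq2 or edgeR, 9.02e-13 to 8.64e-05).

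Sesn1 (ENSMUSG00000038332, chr10:41809935-41908424, + strand) had normalised counts of 985 and 988 in control, 763 and 753 in oxaliplatin, and 753 and 754 in cisplatin libraries. All 4 drug libraries lay below control, and those of both drugs overlapped. For Sesn1 the log2 fold change was -0.38 ± 0.09 (SE; DESeq2 adjusted p = 0.000487) after oxaliplatin and -0.39 ± 0.09 (SE; DESeq2 adjusted p = 0.000273) after cisplatin. No difference between the drugs was detected, with a 95% interval of -0.18 to 0.20. Sesn1 passed after oxaliplatin in 12 of 14 alternatives (DESeq2 or edgeR adjusted p from 0.000274 to 0.0739), with the call lost without oxaliplatin replicate 1 (0.0590) or oxaliplatin replicate 2 (0.0739). The cisplatin call of Sesn1 held in all 14 alternatives with an adjusted p (DESeq2 or edgeR, 3.58e-05 to 0.0434).

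Tigar, a phosphatase that lowers glycolysis, rose by 32.0% after oxaliplatin and by 29.7% after cisplatin. Tigar (ENSMUSG00000038028, chr6:127085116-127109557, - strand) had normalised counts of 433 and 453 in control, 594 and 575 in oxaliplatin, and 591 and 558 in cisplatin libraries. The drug libraries lay above control and overlapped with each other. For Tigar the log2 fold change was 0.40 ± 0.12 (SE; DESeq2 adjusted p = 0.00566) and 0.37 ± 0.12 (SE; DESeq2 adjusted p = 0.00873), and the 95% interval of the drug difference was -0.21 to 0.26. Tigar passed after oxaliplatin in 9 of 14 alternatives (DESeq2 or edgeR adjusted p from 0.00119 to 0.191), with the losses including those without control replicate 1 (0.124), control replicate 2 (0.0630), oxaliplatin replicate 1 (0.191) and oxaliplatin replicate 2 (0.121). After cisplatin Tigar passed in 7 of 14 alternatives (DESeq2 or edgeR adjusted p from 0.00137 to 0.210), and in no fit that left out any 1 of the 6 libraries (0.0533 to 0.210).

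Fdxr, ferredoxin reductase of the mitochondria, fell by 29.6% after oxaliplatin and fell by 25.0% after cisplatin. Fdxr (ENSMUSG00000018861, chr11:115268024-115277050, - strand) had normalised counts of 708 and 654 in control, 481 and 478 in oxaliplatin, and 526 and 495 in cisplatin libraries. All drug libraries lay below control. For Fdxr the log2 fold change was -0.51 ± 0.12 (SE; DESeq2 adjusted p = 0.000217) and -0.41 ± 0.12 (SE; DESeq2 adjusted p = 0.00264), with a 95% interval of the drug difference of -0.33 to 0.15. Fdxr passed after oxaliplatin in 13 of 14 alternatives (DESeq2 or edgeR adjusted p from 0.000132 to 0.0511), with the call lost without control replicate 1 (0.0511). After cisplatin Fdxr passed in 11 of 14 alternatives (DESeq2 or edgeR adjusted p from 0.000673 to 0.136), with the call lost without control replicate 1 (0.118), cisplatin replicate 1 (0.0546) or cisplatin replicate 2 (0.136).

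Abhd4, a lipase that p53 can induce, fell by 20.1% after oxaliplatin. Abhd4 (ENSMUSG00000040997, chr14:54254188-54270637, + strand) had normalised counts of 1344 and 1292 in control, 1029 and 1077 in oxaliplatin, and 1291 and 1236 in cisplatin libraries. Oxaliplatin libraries lay below all others. For Abhd4 the log2 fold change was -0.32 ± 0.08 (SE; DESeq2 adjusted p = 0.000867) after oxaliplatin, -0.06 (DESeq2 adjusted p = 0.637) after cisplatin and -0.26 ± 0.08 (SE; DESeq2 adjusted p = 0.00936) between the drugs. Abhd4 passed after oxaliplatin in 12 of 14 alternatives (DESeq2 or edgeR adjusted p from 0.000465 to 0.112), with the call lost without control replicate 1 (0.0681) or oxaliplatin replicate 1 (0.112). Between the drugs Abhd4 passed in 9 of 14 alternatives (DESeq2 or edgeR adjusted p from 0.00551 to 0.265), with the losses including those without oxaliplatin replicate 1 (0.265), oxaliplatin replicate 2 (0.104), cisplatin replicate 1 (0.253) and cisplatin replicate 2 (0.0985). Ephx1, the microsomal epoxide hydrolase (ENSMUSG00000038776, chr1:180976210-181020904, - strand), had normalised counts of 762 and 730.1 in control, 594 and 682 in oxaliplatin, and 782 and 779 in cisplatin libraries, and by DESeq2 it passed only between the drugs, at -0.29 ± 0.11 (SE; DESeq2 adjusted p = 0.0387). edgeR also called Ephx1 lower after oxaliplatin (edgeR adjusted p = 0.0388). Between the drugs Ephx1 passed in 4 of 14 alternatives, and in no fit that left out any 1 of the 6 libraries. Dcxr, a sugar and carbonyl reductase with 34.8 to 56.0 normalised counts, had log2 fold changes of -0.44 (DESeq2 adjusted p = 0.508) and -0.30 (DESeq2 adjusted p = 0.654).

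The repair genes held the fewest calls of the 5 groups. After oxaliplatin DESeq2 called 1 of 6, Polk (16.7%; all genes, 20.2%). After cisplatin it called 0 of 6 (all genes, 28.1%), where 1 had an unadjusted p under 0.05 and edgeR called 2, Polk higher and Ddb2 lower. Between the drugs 0 of 6 passed (all genes, 19.9%), also at an unadjusted p under 0.05 and by edgeR. Whether counts in a group of 6 genes differ from the shares of all genes was not tested. Polk, a translesion polymerase that copies past bulky adducts, rose by 35.7% after oxaliplatin. Polk (ENSMUSG00000021668, chr13:96480690-96542579, - strand) had normalised counts of 340.4 and 404 in control, 545 and 465 in oxaliplatin, and 453 and 479.9 in cisplatin libraries. Its drug libraries lay above control, with wide spread within the control and oxaliplatin groups. For Polk the log2 fold change was 0.44 ± 0.15 (SE; DESeq2 adjusted p = 0.0180) after oxaliplatin and 0.32 (DESeq2 adjusted p = 0.0890) after cisplatin. Polk passed after oxaliplatin in 8 of 14 alternatives (DESeq2 or edgeR adjusted p from 0.00799 to 0.389), with the losses including those without control replicate 1 (0.282), oxaliplatin replicate 1 (0.389), oxaliplatin replicate 2 (0.0571), cisplatin replicate 1 (0.0633) and cisplatin replicate 2 (0.0670). Polh, the translesion polymerase that bypasses platinum cross-links, did not pass, with 95% intervals of its log2 fold change of -0.10 to 0.26 after oxaliplatin and -0.12 to 0.24 after cisplatin. Groups of Polh overlapped. Xpc and Ddb2 recognize damage in nucleotide excision repair, Ercc5 cuts the damaged strand, and Rrm2b is the p53-induced subunit of ribonucleotide reductase. Xpc, Rrm2b and Ercc5 had log2 fold changes from -0.15 to 0.01 in both drug comparisons. Ddb2 had log2 fold changes of -0.33 (DESeq2 adjusted p = 0.384) and -0.39 (DESeq2 adjusted p = 0.258), and its 652 exon bases shared with Acp2 on the opposite strand make its counts uncertain, since the strand setting of the counting is not given in the sources used here. Another 6 members share exon bases with a second gene (Cdkn1a, Plk3, Ei24, Tigar, Ephx1 and Rrm2b), in each case one with a mean of 0.2 to 8.3 counts.

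Kinases and adaptors that signal to p53, and other genes that act on p53 in either direction, were counted as a companion list of 25 genes, all tested. After oxaliplatin 8 of them (32.0%; all genes, 20.2%) were called, all higher, with 11 at an unadjusted p under 0.05 and 10 higher and 1 lower by edgeR. Cisplatin gave 4 calls up and 3 down (28.0%; all genes, 28.1%), and 6 genes stood above and 1 below their cisplatin level after oxaliplatin (28.0%; all genes, 19.9%). The medians were 0.10, -0.0061 and 0.08. Clspn, the claspin adaptor of the ATR pathway, had 1246 and 1286 in control, 1519 and 1542 in oxaliplatin, and 1791 and 1847 in cisplatin libraries, with log2 fold changes of 0.27 (DESeq2 adjusted p = 0.00166) after oxaliplatin and 0.52 (DESeq2 adjusted p = 2.81e-11) after cisplatin. Clspn passed after oxaliplatin in 11 of 14 alternatives (DESeq2 or edgeR adjusted p from 0.00136 to 0.119), with the call lost without control replicate 1 (0.0703), oxaliplatin replicate 1 (0.0839) or oxaliplatin replicate 2 (0.119). H2afx, the histone H2AX that is phosphorylated at breaks, had 989 and 769 in control, 956 and 1014 in oxaliplatin, and 486 and 448 in cisplatin libraries, so that only cisplatin libraries stood apart. Its log2 fold change was -0.91 (DESeq2 adjusted p = 6.83e-10) after cisplatin and 1.08 (DESeq2 adjusted p = 1.87e-13) for oxaliplatin minus cisplatin. Mre11a, a nuclease of the MRN complex, had log2 fold changes of 0.32 (DESeq2 adjusted p = 8.17e-05) and 0.30 (DESeq2 adjusted p = 0.000224), and passed after cisplatin in 13 of 14 alternatives (DESeq2 or edgeR adjusted p from 0.000228 to 0.0528), with the call lost without cisplatin replicate 2 (0.0528). Rad9a, of the 9-1-1 clamp, had 0.28 (DESeq2 adjusted p = 0.0261) and 0.34 (DESeq2 adjusted p = 0.00354). Rad9a passed after oxaliplatin in 7 of 14 alternatives (DESeq2 or edgeR adjusted p from 0.0109 to 0.435), and in no fit that left out any 1 of the 6 libraries (0.0881 to 0.435), and after cisplatin in 11 of 14 alternatives (DESeq2 or edgeR adjusted p from 0.00207 to 0.166), with the call lost without control replicate 1 (0.0786), control replicate 2 (0.0524) or cisplatin replicate 2 (0.166). Rad9a, Mre11a and H2afx share exon bases on the opposite strand with Ppp1ca, Ankrd49 and Gm44335, which makes their counts uncertain.

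A second companion list held 19 other p53 targets, of which 16 were tested. Oxaliplatin gave 4 calls up and 2 down (37.5%; all genes, 20.2%), and cisplatin 5 up and 1 down (37.5%; all genes, 28.1%). Between the drugs 3 passed (18.8%; all genes, 19.9%), all of them lower in oxaliplatin cells, with 7 at an unadjusted p under 0.05 and 1 up and 6 down by edgeR. The medians were -0.05, 0.27 and -0.23. Gadd45a, a stress protein that inhibits CDK1, had 109 and 99.5 in control, 97.5 and 78.8 in oxaliplatin, and 246 and 272 in cisplatin libraries. Like the counts of Cdkn1a, those of Gadd45a were highest in both cisplatin libraries and lowest in both oxaliplatin libraries. Gadd45a had log2 fold changes of 1.31 (DESeq2 adjusted p = 2.26e-07) after cisplatin and -0.24 (DESeq2 adjusted p = 0.550) after oxaliplatin. The second did not pass. Gadd45a shares 337 exon bases on the opposite strand with E230016M11Rik (mean of 18.0 counts), which makes its counts uncertain. Ier5, an immediate early gene, had log2 fold changes of 0.45 (DESeq2 adjusted p = 3.93e-05) and 0.52 (DESeq2 adjusted p = 6.79e-07) after oxaliplatin and cisplatin. Cd82, a metastasis suppressor, had -0.49 (DESeq2 adjusted p = 3.16e-09) and -0.18 (DESeq2 adjusted p = 0.0478). Cd82 passed after cisplatin in 4 of 14 alternatives (DESeq2 or edgeR adjusted p from 0.00951 to 0.410), and in no fit that left out any 1 of the 6 libraries (0.0738 to 0.410).

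The p53 targets that open the mitochondrial path of apoptosis belong to that second list. Bax, the pore-forming protein, had 970.2 and 864 in control, 1114 and 1125 in oxaliplatin, and 973 and 996 in cisplatin libraries, with log2 fold changes of 0.29 (DESeq2 adjusted p = 0.0129) after oxaliplatin and 0.10 (DESeq2 adjusted p = 0.457) after cisplatin. Bax passed after oxaliplatin in 8 of 14 alternatives (DESeq2 or edgeR adjusted p from 0.00716 to 0.285), with the losses including those without control replicate 2 (0.285), oxaliplatin replicate 1 (0.179), oxaliplatin replicate 2 (0.210), cisplatin replicate 1 (0.0595) and cisplatin replicate 2 (0.0627). Bbc3, the BH3-only protein PUMA, had 183 and 126 in control, 129 and 146 in oxaliplatin, and 239 and 205 in cisplatin libraries, with -0.16 (DESeq2 adjusted p = 0.705) and 0.53 (DESeq2 adjusted p = 0.0876) against control and -0.69 (DESeq2 adjusted p = 0.0243) between the drugs. Bbc3 passed between the drugs in 9 of 12 alternatives (DESeq2 or edgeR adjusted p from 0.0107 to 0.290), with the losses including those without oxaliplatin replicate 1 (0.290) and oxaliplatin replicate 2 (0.120). Pmaip1, the BH3-only protein NOXA, rose from low counts after cisplatin, with 13.5 and 22.7 in control, 32.5 and 50.1 in oxaliplatin, and 81.4 and 74.7 in cisplatin libraries, and had log2 fold changes of 1.18 (DESeq2 adjusted p = 0.0526) and 2.11 (DESeq2 adjusted p = 5.92e-05). All Pmaip1 libraries of the 3 groups were separate. By edgeR Pmaip1 was also higher after oxaliplatin (edgeR adjusted p = 0.0228) and lower after oxaliplatin than after cisplatin (edgeR adjusted p = 0.0288). Bbc3 was called higher after cisplatin (edgeR adjusted p = 0.0292), and Bax higher after oxaliplatin than after cisplatin (edgeR adjusted p = 0.0427). Of the p53 family, Trp63 had 13.5 and 18.7 in control, 10.2 and 8.19 in oxaliplatin, and 8.82 and 3.07 in cisplatin libraries and no adjusted p, and Trp73 was at 0 in every library, which allows up to 0.125 to 0.141 CPM.

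Calls were also counted by the promoter windows shown above, as a description, where 20.2%, 28.1% and 19.9% of all genes were called in the 3 comparisons. Of the 11 members with a half-site, 3 were called up and 3 down after oxaliplatin and 4 up and 2 down after cisplatin, and 5 stood below their cisplatin level after oxaliplatin, with medians of 0.10, 0.31 and -0.14. Of the 20 tested members whose window held none, 4 were called up and 4 down after oxaliplatin and 4 up and 3 down after cisplatin, and 1 stood above and 6 below their cisplatin level after oxaliplatin, with medians of -0.10, 0.09 and -0.16. Plk2, whose counts rose most among called members, and Sesn2, which had the smallest adjusted p between the drugs, belong to this second set.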

How the data were processed

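Per the labels, libraries were made from poly(A) RNA with a stranded mRNA kit. The authors deposited expected counts per gene. The submitters' processing notes name STAR 2.5.3a, RSEM 1.3.0 and GRCm38.p6, and the methods of the study name a different counter, with a GENCODE annotation. Whether this table used that annotation, and with which strand setting, is not given in the sources used here. GENCODE M21 symbols matched 54409 of 54446 identifiers, 53229 with the same version. Expected counts were rounded to whole numbers, and a gene was tested if 2 or more libraries held 10 or more counts of it. DESeq2 1.42.0 (R 4.3.3) was fitted once to 6 libraries with group as the factor, median-of-ratios size factors (0.964 to 1.08), two-sided Wald tests, independent filtering at 0.1 and Benjamini-Hochberg adjustment over all genes, with a threshold of 0.05. Normalised counts are counts divided by size factors. Alternatives were edgeR 4.0.16, TMM and total-count scaling, other filters, a replicate block, 4-library fits and leaving out each library. The fits were tested on simulated data. Values in every library are given for members called in any comparison, for Trp53, Mdm2 and Cdkn1a, for the p53 family, and from each companion list for up to 4 genes with the smallest adjusted p against control plus Bax, Bbc3 and Pmaip1; some genes of the companion and marker lists are not reported here. The members and lists were chosen with earlier results of these data known.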

Additional observations from a re-analysis of the deposited data

Results flagged for a closer look

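For 5 members the changes after oxaliplatin and after cisplatin had opposite signs, and the direct test between the drugs passed. The share of all genes with both properties was not counted. The log2 differences, oxaliplatin minus cisplatin, were -1.28 (DESeq2 adjusted p = 8.63e-08) for Cdkn1a, -0.94 (DESeq2 adjusted p = 3.09e-12) for Sesn2, -0.91 (DESeq2 adjusted p = 7.55e-05) for Trp53inp1, -0.30 (DESeq2 adjusted p = 0.000378) for Ccng1 and -0.29 (DESeq2 adjusted p = 0.0387) for Ephx1. For Cdkn1a the values against control were -0.29 after oxaliplatin and 0.99 after cisplatin, and only the second passed. For Sesn2 and Trp53inp1 they were -0.70 and 0.23, and -0.61 and 0.31, and only the first of each pair passed. The cisplatin values of Ccng1 (0.0094) and Ephx1 (0.07) were close to 0, and the drug difference of Ephx1 passed in no fit that left out 1 library. With 2 libraries a group, outliers within groups were not tested.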

How the results depend on the processing

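Of the calls of members, 5 of 15 after oxaliplatin (Btg2, Plk2, Aen, Apaf1 and Sesn2), 7 of 13 after cisplatin (Trp53, Cdkn1a, Btg1, Plk2, Aen, Phlda3 and Sesn1) and 3 of 13 between the drugs (Cdkn1a, Trp53inp1 and Sesn2) passed in every alternative that gave an adjusted p. edgeR gave 24 cisplatin calls, 17 of them higher, and 2 higher calls between the drugs. Total-count scaling left 8 calls between the drugs, 7 of them lower, and moved the median of all genes by -0.014, -0.048 and 0.034 in the 3 comparisons. The replicate block left 10, 11 and 5 calls in the 3 comparisons, with 3 higher calls after oxaliplatin and 5 lower calls between the drugs. It ended the calls of Trp53, Btg1, Trp53inp1, Tigar and Polk after oxaliplatin (DESeq2 adjusted p from 0.0597 to 0.139), of Btg2 and Tigar after cisplatin (0.138 and 0.0670), of Trp53, Mdm2, Btg1, Btg2, Plk2, Psrc1, Ephx1 and Abhd4 between the drugs (0.0614 to 0.195), and of Rad9a and Bax after oxaliplatin, Cd82 after cisplatin and Bbc3 between the drugs (0.0802 to 0.144). Higher calls between the drugs numbered 0 with no filter on low counts, with no independent filtering, under the replicate block and with only the 4 libraries compared. Leaving out each library in turn gave 6 to 11 calls after oxaliplatin (2 to 4 higher and 4 to 7 lower), 8 to 11 after cisplatin (6 to 8 higher and 1 to 4 lower) and 1 to 7 between the drugs (0 higher and 1 to 7 lower). The cause of these shifts was not tested, except that fits without a library hold fewer samples, and a lone library is then assumed to vary like the other groups. Apart from edgeR, the share of all genes called in these alternatives was not counted. How far all genes share these shifts is therefore not known. Same-numbered libraries did not deviate together (correlations across 10731 genes of 0.07, -0.05 and -0.19), so the replicate numbers were not taken as pairs.

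Signs turned only for values that had not passed. Ccng1 after cisplatin became -0.0387 under total-count scaling. With each library left out in turn, the log2 fold change of Ccng1 after cisplatin ran from -0.0148 to 0.0351, and after oxaliplatin that of H2afx ran from -0.0030 to 0.358 and that of Bbc3 from -0.406 to 0.128. Between the drugs the ranges were -0.00096 to 0.0180 for Sesn1, -0.0158 to 0.0677 for Tigar, -0.0058 to 0.224 for Polk and -0.134 to 0.0053 for Rad9a. With 2 libraries a group, small changes of low genes such as Gdf15, Perp and Eda2r could be missed.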
